A study of Mus musculus with 6 samples.

Results

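The genes described here were Rpl22, its paralog Rpl22l1, and Mdm4 and Smad2, whose RNAs have been described as splicing targets of the Rpl22 proteins. They were taken by name, with every transcript that the annotation assigns to them, which gave 4 of 51497 genes and 38 of 136036 transcripts: 8 of Rpl22, 9 of Rpl22l1, 14 of Mdm4 and 7 of Smad2. RNA-seq was performed on CD11b+Gr1+ splenocytes, the myeloid leukemia cells sorted from tumor-bearing mice, to ask how loss of Rpl22 alters gene expression in leukemia. Each of the 6 libraries carried the Mll-AF9 fusion oncogene, introduced as a knockin. In 3 of them both copies of Rpl22 were intact (Rpl22+/+), and in 3 both were lost (Rpl22-/-). The mice were described as young adults on the C57BL/6 background, and the labels give no age for the leukemic mice behind these libraries. Which exons the Rpl22 allele lacks is not given in the sources used here. They name a single leukemic mouse for each genotype, and nothing in the labels ties the libraries to separate animals, so the spread given here, and every p-value, is that between libraries and may be technical.

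Rpl22 is an RNA-binding protein of the large ribosomal subunit that is dispensable for ribosome assembly in most cells. Rpl22l1 is a closely related protein that can take its place in the ribosome, and the pair has opposing actions in blood development. Both proteins also bind RNAs outside the ribosome, including pre-mRNAs. Mdm4 (also known as MdmX) restrains p53, and skipping of an internal Mdm4 exon yields an RNA that is degraded. Smad2 carries TGF-beta and activin signals to the nucleus, and an exon in its DNA-binding region is skipped in part of its RNA in many tissues.

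Depth ranged from 35828500 to 102866127 estimated reads per library, and 16656 genes, 52589 transcripts and all 4 members were tested. Rpl22+/+ replicate 2 stood apart: across 16656 genes its log2 CPM (counts scaled to library size) correlated with the other Rpl22+/+ libraries at 0.961 and 0.966, whereas those correlated with each other at 0.996. Without it, 6851 genes were called between the genotypes, against 4594 with all libraries. Myeloid markers were abundant in every library, with a summed level of 116866 to 122766 TPM (Salmon's length-scaled transcript abundance) in Rpl22+/+ and 105471 to 125627 TPM in Rpl22-/-, with 2 of 9 higher and 2 lower by the edgeR test described with Rpl22. Erythroid markers (4 of 5 higher) summed to 147 to 172 TPM in Rpl22+/+ and 914 to 1678 TPM in Rpl22-/-. T cell markers (5 of 5 lower) summed to 25.3 to 31.7 and 8.43 to 10.1 TPM, and B cell markers (1 of 5 lower) to 395 to 502 and 284 to 388 TPM. Platelet markers summed to 3.57 to 4.87 and 4.94 to 5.17 TPM and stromal markers to 23.3 to 26.1 and 33.4 to 39.1 TPM, without a call among the 2 and 3 genes tested (1 in each list had an unadjusted p under 0.05 in edgeR, and DESeq2 called 1 stromal gene higher). No marker was at 0 in every library. The part of these other cells in the members' levels was not tested.

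Since a transcript total is all that the files hold, each splicing change is seen through the annotated transcripts that carry it, shown as exon diagrams. Rpl22-201 (4 exons, 384 coding bases) is the coding form. Rpl22-202, Rpl22-203, Rpl22-206 and Rpl22-207 lack the first exon and thus the start codon: Rpl22-202 begins with a separate exon inside the first intron, Rpl22-203 runs from the first intron into exon 2 without splicing, and Rpl22-206 adds a 154-base exon between exons 2 and 3. The join of the first exon to exon 2 and the run from intron into exon are printed because Rpl22-201 lay lower and Rpl22-203 higher in each Rpl22-/- library. The capitals mark the 12 coding bases of the first exon (chr4:152325884-152325895, plus strand, GRCm38) and the last 30 bases of the first intron (chr4:152327451-152327480).
Rpl22-201: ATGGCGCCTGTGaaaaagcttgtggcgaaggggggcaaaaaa
Rpl22-203: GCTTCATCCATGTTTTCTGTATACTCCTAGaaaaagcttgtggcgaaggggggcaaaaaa

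**Figure D1:**
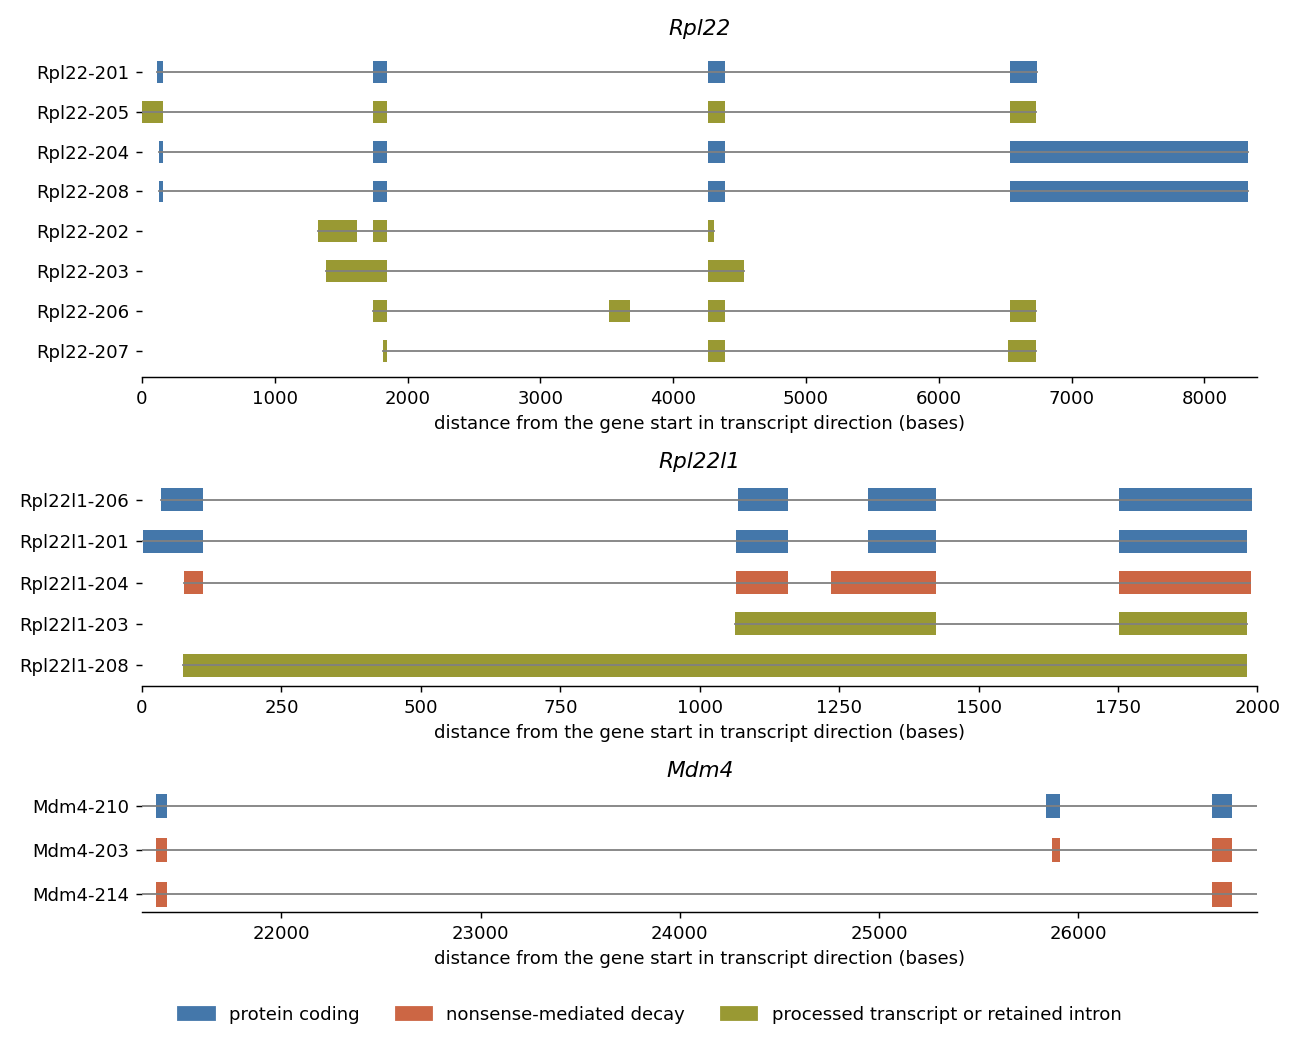
Exons (boxes) and introns (lines) of annotated transcripts of Rpl22, Rpl22l1 and Mdm4, plotted to scale against the distance in bases from the start of each gene, with the annotated type in color. The Mdm4 panel shows only the stretch around its 68-base exon, which is whole in Mdm4-210, shortened to 39 bases in Mdm4-203 and absent from Mdm4-214; the extra 154-base exon of Rpl22-206 and the extended exon 3 of Rpl22l1-204 stand out in their panels.

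Rpl22l1-206 and Rpl22l1-201 both code for protein (363 and 366 coding bases) and differ by 3 bases at the start of exon 2. Rpl22l1-204 uses an acceptor 67 bases upstream of that of exon 3, which shifts the reading frame and brings a stop codon 26 bases into the usual exon, so that it is annotated as a target of nonsense-mediated decay. The joins that separate these forms are printed because the shares of the acceptors of exon 3 did not overlap between the genotypes. In the first pair the capitals mark the 67 added bases (chr3:28806670-28806736, plus strand, GRCm38), and the last 3 bases of Rpl22l1-204 are the stop codon. In the second pair, which starts at the start codon, they mark 3 bases that Rpl22l1-201 contains and Rpl22l1-206 lacks (chr3:28806500-28806502).
Rpl22l1-206 exon 2 to exon 3: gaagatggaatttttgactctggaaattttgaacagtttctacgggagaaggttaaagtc
Rpl22l1-204 exon 2 to exon 3: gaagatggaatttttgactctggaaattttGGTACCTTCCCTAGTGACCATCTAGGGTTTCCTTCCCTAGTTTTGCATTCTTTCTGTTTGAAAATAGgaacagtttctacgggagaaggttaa
Rpl22l1-201 exon 1 to exon 2: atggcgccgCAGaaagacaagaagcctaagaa
Rpl22l1-206 exon 1 to exon 2: atggcgccgaaagacaagaagcctaagaa

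Mdm4-210 is the main coding form of Mdm4, and Mdm4-214 joins the exons on either side of the 68-base exon. Since 68 bases are not a whole number of codons, the frame shifts and a stop codon ends 41 bases into the next exon. The capitals mark the 68-base exon in Mdm4-210 (chr1:133004654-133004721, minus strand, GRCm38) and the stop codon in Mdm4-214 (chr1:133003850-133003852).
Mdm4-210: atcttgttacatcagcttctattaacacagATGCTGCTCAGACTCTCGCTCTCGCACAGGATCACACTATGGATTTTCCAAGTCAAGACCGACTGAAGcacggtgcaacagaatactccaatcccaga
Mdm4-214: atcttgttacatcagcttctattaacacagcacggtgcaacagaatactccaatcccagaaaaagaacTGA

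To determine what remained of Rpl22 RNA, the gene was examined first. Rpl22 (ENSMUSG00000028936, chr4:152410199-152418528, plus strand, GRCm39) stood at 596, 729.9 and 615 TPM in the Rpl22+/+ libraries and at 234, 326 and 290.2 TPM in the Rpl22-/- libraries. Thus every Rpl22-/- library fell below every Rpl22+/+ library, yet the knockout mean was 43.8% of the wild-type mean (283 ± 46.0 against 647 ± 72.6 TPM, SD, n = 3 each). In counts summed per gene the log2 fold change was -1.27 ± 0.25 (SE), with an adjusted p of 0.0106 in the quasi-likelihood test of edgeR. The call held under each alternative setting and without any single library, where the adjusted p ranged from 0.00728 to 0.0495. In bulk RNA, fewer cells that express a gene and less RNA per cell cannot be told apart. A transcript total also does not show which exons the remaining reads cover, so these values measure Rpl22 RNA and not intact Rpl22 message.

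The annotated forms to which the remaining reads were assigned were then compared. Reads from an altered transcript that the annotation lacks could be counted under these forms, and this was not tested. Rpl22-201 had 574, 708 and 593 TPM in Rpl22+/+ and 199.6, 298 and 252 TPM in Rpl22-/-, a log2 fold change of -1.47 ± 0.35 in transcript counts (adjusted p = 0.0658, or 0.0376 with the replicate number as a block). Of the 4 forms that lack the first exon, 2 were called higher. Rpl22-203 had 2.40, 0.49 and 1.68 TPM in Rpl22+/+ against 13.8, 8.54 and 11.1 TPM in Rpl22-/- and rose by 2.82 ± 0.48 on the log2 scale (adjusted p = 0.0241). Rpl22-202 had 2.99, 0.69 and 2.81 TPM against 14.1, 7.64 and 15.0 TPM and rose by 2.48 ± 0.52 (adjusted p = 0.0462, and 0.0541 with the replicate block). In both, the lowest knockout library exceeded the highest wild-type library. These were 2 of the 27 member transcripts tested. Over all transcripts tested, 2.65% were called higher and 3.15% lower. With any single library left out other than Rpl22+/+ replicate 2, neither was called, at adjusted p-values of up to 0.107 and 0.153.

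Rpl22-206, with the extra exon between exons 2 and 3, had 0, 0.25 and 0.55 TPM in Rpl22+/+ and 1.51, 2.19 and 2.49 TPM in Rpl22-/- (log2 fold change 2.79 ± 1.10, adjusted p = 0.226). Together with Rpl22-207, which stayed between 0.096 and 0.82 TPM in all libraries, the forms without the first exon summed to 6.21, 1.53 and 5.34 TPM in Rpl22+/+ and 29.7, 18.6 and 28.8 TPM in Rpl22-/-. That was 0.71 ± 0.44% of Rpl22 TPM in the wild type and 9.44 ± 3.51% in the knockout (SD, n = 3 each). The remaining forms, which begin at the first exon, had means of 642 ± 75.0 and 258 ± 51.2 TPM, the second being 40.1% of the first, with no overlap between the groups. Rpl22-205, a noncoding form with a longer first exon, had 4.59, 6.35 and 4.45 TPM against 2.12, 4.62 and 5.49 TPM, and these groups overlapped. Rpl22-204 and Rpl22-208 share all but a few bases at their ends and extend the last exon, and the reads were split between them so unevenly (each was at 0 in some libraries) that they are given as uncertain.

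**Figure D2:**
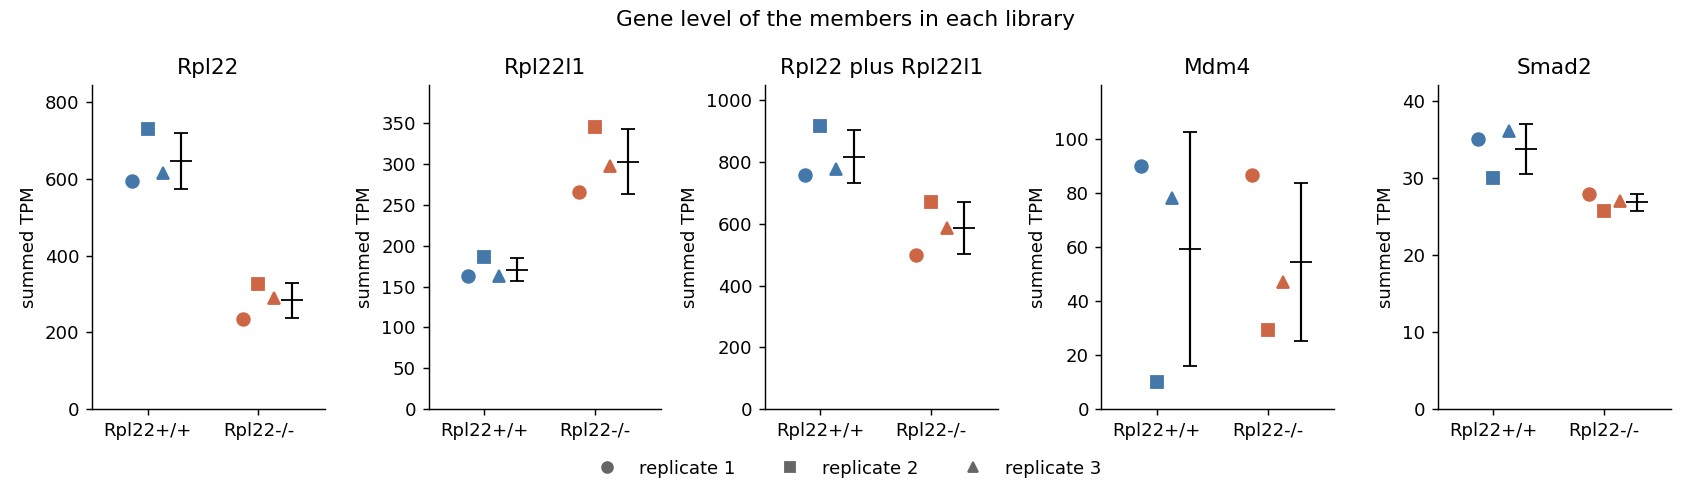
Summed TPM of Rpl22, Rpl22l1, the sum of both, Mdm4 and Smad2 in each library (symbols give the replicate number), with the mean and SD of 3 libraries in black. Rpl22 lies lower and Rpl22l1 higher in each Rpl22-/- library, Mdm4 spreads from 9.84 to 89.9 TPM, and Smad2 lies between 25.7 and 27.8 TPM in Rpl22-/- and between 29.99 and 36.1 TPM in Rpl22+/+.

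**Figure D3:**
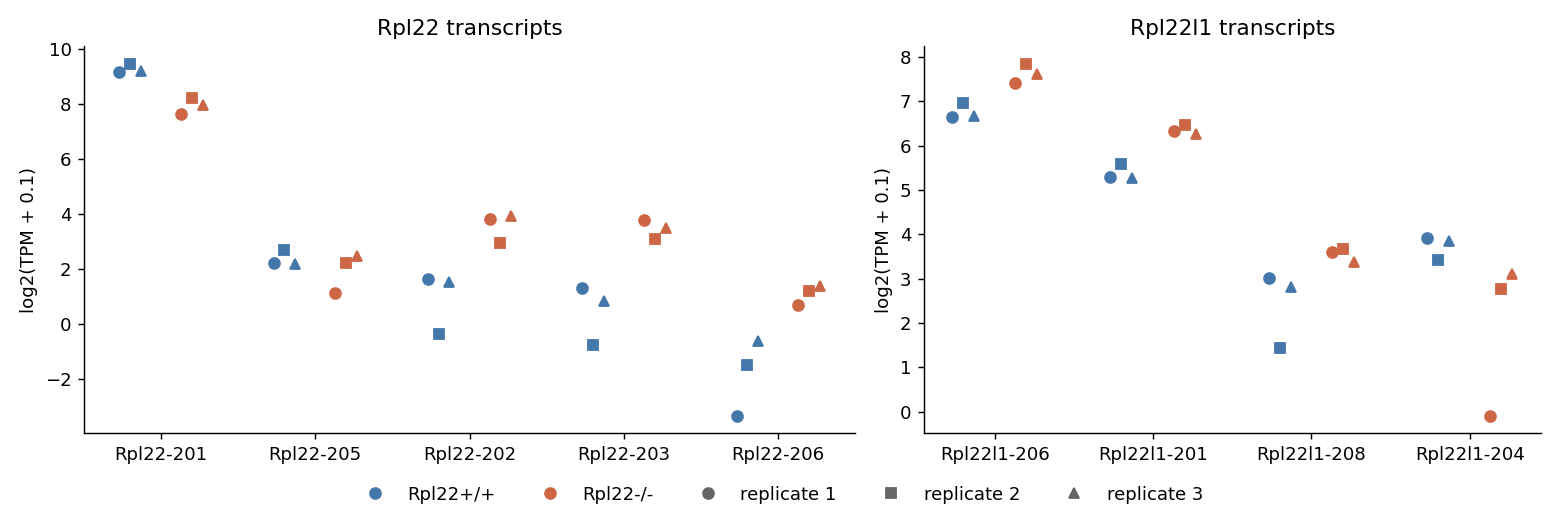
log2(TPM + 0.1) of the Rpl22 and Rpl22l1 transcripts in each library, colored by genotype, with symbols for the replicate number. Rpl22-201 is lower and Rpl22-202, Rpl22-203 and Rpl22-206 are higher in the Rpl22-/- libraries, and of the 4 Rpl22l1 forms Rpl22l1-204 alone is lower in them.

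Rpl22l1 was higher in the knockout leukemias. The gene (ENSMUSG00000039221, chr3:28859585-28861573, plus strand, GRCm39) stood at 162, 187 and 162 TPM in Rpl22+/+ and at 266, 345 and 297 TPM in Rpl22-/-. The groups did not overlap, and the mean rose 1.78-fold (171 ± 14 to 303 ± 39.7 TPM, SD, n = 3 each). In gene counts the log2 fold change was 0.77 ± 0.19 (adjusted p = 0.0263). Among the 4 members, 1 was thus called higher, as were 13.7% of all genes tested, and 2 were called lower, as were 13.8%. Groups did not overlap in CPM for 3 of the 4 members and for 46.1% of all genes. The Rpl22l1 transcripts are poor in G and C (39.6%, the 4.28 percentile of tested genes). The levels of such genes differed between libraries, for a cause that was not tested. For each library, a curve on GC content was fitted to the deviation of each gene's log2 CPM from its mean over all libraries. At this GC content the curve lay at -1.34 in Rpl22+/+ replicate 2 and at 0.57 in Rpl22-/- replicate 1. With that curve as an offset, the log2 fold change was 0.14 (adjusted p = 0.894), and 0.45 (adjusted p = 0.241) when the replicate block was added. The call was also lost without Rpl22+/+ replicate 1 (adjusted p = 0.0943), Rpl22+/+ replicate 3 (0.109) or Rpl22-/- replicate 3 (0.0720), whereas without Rpl22+/+ replicate 2 the log2 fold change was 0.88 (adjusted p = 0.0113).

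Both coding forms of Rpl22l1 were higher in every knockout library. Rpl22l1-206 had 100.5, 125 and 101 TPM in Rpl22+/+ and 170.4, 231 and 198 TPM in Rpl22-/-. Rpl22l1-201 had 38.9, 47.8 and 38.4 TPM against 80.3, 88.6 and 76.5 TPM. Neither passed the transcript test (log2 fold changes of 0.71 ± 0.33 and 0.80 ± 0.31, adjusted p = 0.303 and 0.218), although the groups did not overlap for either. Among coding Rpl22l1 TPM, the form with 3 more bases in exon 2 held 27.9, 27.7 and 27.5% in Rpl22+/+ and 32.0, 27.7 and 27.9% in Rpl22-/- (a difference of 1.52 percentage points, exact two-sided permutation p = 0.3). Over all forms spliced at this exon, which adds Rpl22l1-204, transcripts with the 3 bases held 33.7 ± 1.62% in the wild type and 30.5 ± 1.62% in the knockout (-3.20 points, exact two-sided permutation p = 0.2). The groups overlapped in both, and the differences had opposite signs. Rpl22l1-208, which is not spliced at all, had 7.96, 2.62 and 6.91 TPM against 12.1, 12.5 and 10.3 TPM, and Rpl22l1-203, which retains the second intron, reached at most 1.57 and 5.28 TPM. Rpl22l1-202 and Rpl22l1-207 had reads in 1 library each, and Rpl22l1-205 and Rpl22l1-209 had none. For these last forms, 0 reads allow a share of up to 0.0253% to 0.0962% of the gene's reads in a library, from counting error alone.

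Next, the balance of the paralogs was assessed in each library. Rpl22 exceeded Rpl22l1 by 3.67, 3.91 and 3.79 times in TPM in Rpl22+/+, whereas the ratio was 0.88, 0.94 and 0.98 in Rpl22-/-. On the log2 scale the Rpl22l1 to Rpl22 ratio went from -1.92 ± 0.046 to 0.10 ± 0.076 (SD, n = 3 each), a difference of 2.02 with a two-sided exact permutation p of 0.1, the smallest that 3 libraries against 3 allow. The difference was many times the spread within either genotype, and it ranged from 1.98 to 2.05 with each library left out. After the GC curve of each library was subtracted from log2 CPM, the ratio was -1.97, -0.48 and -1.93 in Rpl22+/+ and 0.025, 0.60 and 0.16 in Rpl22-/-. The groups still did not overlap, but the difference was 1.72 and the wild-type SD 0.85, with Rpl22+/+ replicate 2 apart from the other wild-type libraries. Rpl22l1 made up 20.9 ± 0.53% of the RNA of both genes in the wild type and 51.7 ± 1.31% in the knockout. Their summed level was 758, 917 and 777 TPM in Rpl22+/+ and 500.5, 670.5 and 587 TPM in Rpl22-/-, so that the Rpl22-/- mean was 71.7% of the wild-type mean. The coding sequences of Rpl22-201 and Rpl22l1-206 were identical at 67.5% of 385 aligned positions, with a longest identical run of 26 bases. Near-identical copies elsewhere in the genome held few reads: Rpl22-ps1 had 21.7 to 96.5 reads, at most 0.992% of the Rpl22 reads of a library, and Gm15421 had 2.21 to 32.0 reads, at most 0.584% of those of Rpl22l1.

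To determine whether forms within a gene shifted, the share of each transcript in its gene's TPM was compared. Of the 27 member transcripts tested for usage, 7 had higher shares in each Rpl22-/- library than in any Rpl22+/+ library, against 9.88% of all 46279 transcripts, and 5 had lower shares, against 8.72%. The first were Rpl22-202, Rpl22-203, Rpl22-205, Rpl22-206, Rpl22l1-201, Mdm4-205 and Smad2-201, and the second Rpl22-201, Rpl22l1-204, Mdm4-202, Mdm4-214 and Smad2-206. None of the 27 was called in the usage test of edgeR (diffSpliceDGE), which called 0.357% of all transcripts higher and 0.294% lower; 4 of the 27 had an unadjusted p under 0.05, beside 1490 of all 46279. Nor was any called by limma diffSplice (6 unadjusted, beside 3959 of all) or by a limma fit to the log2 ratio of a transcript to the rest of its gene (8 unadjusted, beside 4970 of all), which called 0.274% higher and 0.285% lower. In that last fit the smallest adjusted p-values were those of Rpl22-201 (0.0869), Rpl22-203 (0.0923) and Rpl22-206 (0.0963). Without Rpl22-/- replicate 1, diffSpliceDGE called Rpl22-203 (adjusted p = 0.0348), a test that made more false calls than its threshold allows on simulated counts.

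In Rpl22l1 the upstream acceptor of exon 3 held a smaller share in each knockout library, while the gene as a whole was higher. Rpl22l1-204 had 15.1, 10.6 and 14.3 TPM in Rpl22+/+ and 0.84, 6.68 and 8.47 TPM in Rpl22-/-. Thus transcripts with the upstream acceptor made up 9.76, 5.78 and 9.30% of Rpl22l1 TPM spliced at this exon in Rpl22+/+ and 0.33, 2.26 and 3.00% in Rpl22-/-. The means were 8.28 ± 2.18% and 1.86 ± 1.38% (SD, n = 3 each), a difference of -6.42 percentage points with an exact two-sided permutation p of 0.1. The value of Rpl22-/- replicate 1 rests on 9 of 2514 reads, which gives 0.358% with a Wilson 95% interval of 0.188 to 0.679%, from counting error alone. In the ratio fit the log2 difference was -2.72 ± 0.82 with an unadjusted p of 0.0164 and an adjusted p of 0.329.

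**Figure D4:**
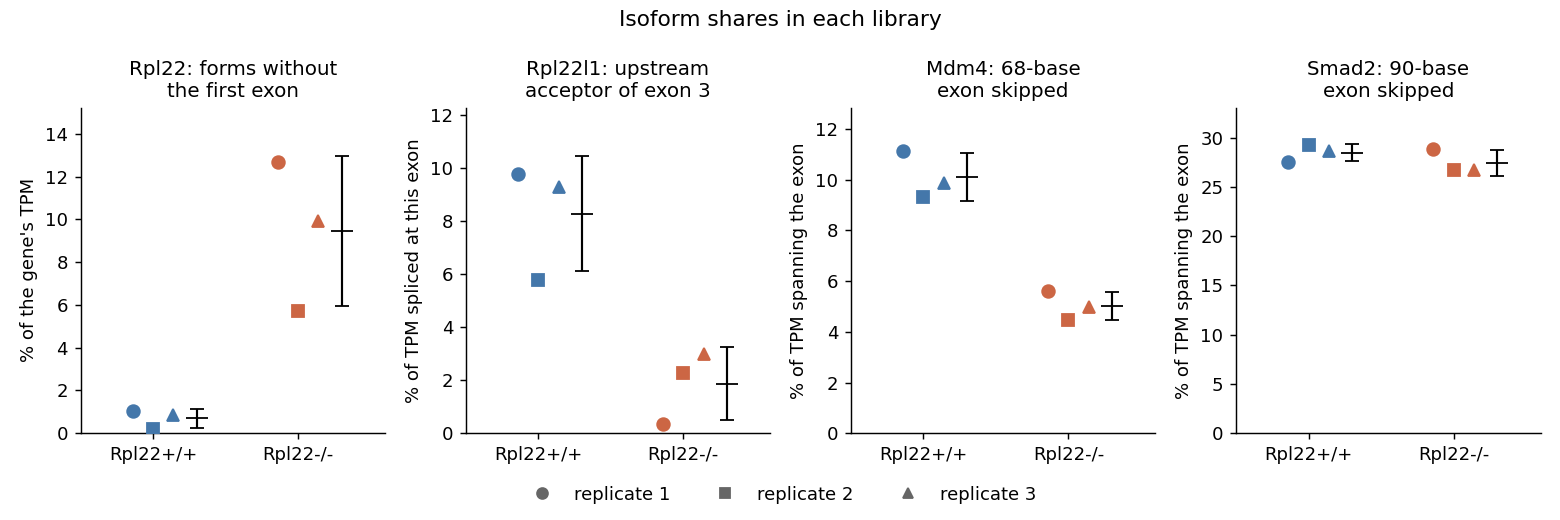
Share of TPM, in percent, of Rpl22 forms without the first exon, of Rpl22l1 forms with the upstream acceptor of exon 3, and of Mdm4 and Smad2 forms that skip the exon named, in each library, with the mean and SD of 3 libraries in black. The genotypes do not overlap in the first 3 panels, and in Smad2 all 6 libraries lie between 26.7 and 29.3%.

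For Mdm4 the gene total told little. Mdm4 (ENSMUSG00000054387, chr1:132887222-132958299, minus strand, GRCm39) stood at 89.9, 9.84 and 77.9 TPM in Rpl22+/+ and at 86.4, 29.3 and 47.1 TPM in Rpl22-/-. Rpl22+/+ replicate 2 was far below the other wild-type libraries, and the groups overlapped. The log2 fold change was -0.11 ± 0.60 (adjusted p = 0.923), and without that library it was -0.62 (adjusted p = 0.132). Its sign turned under limma-voom (0.17), limma on log2(TPM + 1) (0.24) and the replicate block (0.15), so no direction is given for the gene.

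The share of Mdm4 RNA that skips the 68-base exon, by contrast, was much the same within a genotype. Mdm4-214 had 6.62, 0.79 and 4.91 TPM in Rpl22+/+ and 3.00, 0.96 and 1.70 TPM in Rpl22-/-, following the level of the gene. As a share of the Mdm4 TPM that spans the exon it was 11.1, 9.33 and 9.85% in Rpl22+/+ and 5.60, 4.48 and 4.99% in Rpl22-/-. Skipping thus stood at 10.1 ± 0.93% in the wild type and 5.02 ± 0.56% in the knockout (SD, n = 3 each), and Rpl22+/+ replicate 2, despite its low level, lay with its own genotype. The difference of -5.08 percentage points was several times either SD, its exact two-sided permutation p was 0.1, and it ranged from -5.47 to -4.57 with each library left out. By reads the skipping form held 153 of 3981 in the wild-type library with the smallest share (3.84%, Wilson 95% interval 3.29 to 4.49%) and 216 of 9460 in the knockout library with the largest share (2.28%, 2.00 to 2.60%). The ratio fit gave -1.10 ± 0.24 (unadjusted p = 0.00370, adjusted p = 0.179), and diffSpliceDGE an unadjusted p of 0.238. Mdm4-203, which keeps only 39 bases of the exon, held 1.47, 1.87 and 2.64% against 2.45, 3.38 and 4.78%, and these overlapped.

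Most other Mdm4 forms overlapped between the genotypes in their shares, Mdm4-202 and Mdm4-205 (2.64 ± 0.66% and 4.16 ± 0.85%) being the exceptions. Mdm4-210 held 62.0 ± 11.5% of the gene's TPM in the wild type and 62.3 ± 5.88% in the knockout. Forms annotated with a retained intron (Mdm4-204, Mdm4-205, Mdm4-207, Mdm4-209 and Mdm4-211) held 31.9, 9.73 and 35.9% against 35.3, 24.4 and 25.3%, lowest in Rpl22+/+ replicate 2. Mdm4-202 held 0.84 ± 0.27% and 0.27 ± 0.063%, with reads of 16.3 to 144 per library for the values given. Mdm4-201, Mdm4-206, Mdm4-207, Mdm4-208 and Mdm4-212 each stayed at or under 1.03% of the gene in every library, and Mdm4-213 and Mdm4-209 at or under 4.07%.

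Smad2 was moderately lower. The gene (ENSMUSG00000024563, chr18:76374651-76444034, plus strand, GRCm39) stood at 35.1, 29.99 and 36.1 TPM in Rpl22+/+ and at 27.8, 25.7 and 26.9 TPM in Rpl22-/-, so that the knockout mean was 79.5% of wild type with no overlap. It fell by 0.38 ± 0.11 on the log2 scale in gene counts (adjusted p = 0.0425). The call was lost with the replicate block (adjusted p = 0.0550), with no filter on low counts (0.112), with no composition factor (0.118), and without any 1 library other than Rpl22+/+ replicate 2 (0.0858 to 0.165, against 0.0113 without that library). The estimate itself stayed between -0.26 and -0.44 in all of these.

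The 90-base exon of Smad2, which adds 30 codons in frame, did not separate the genotypes in TPM. Forms that skip it (Smad2-202, Smad2-203, Smad2-204 and Smad2-207) held 27.5, 29.3 and 28.6% of Smad2 TPM in Rpl22+/+ and 28.9, 26.7 and 26.7% in Rpl22-/-, and these overlapped. The mean difference was -1.06 percentage points (exact two-sided permutation p = 0.3). In shares of reads, where long forms weigh more, the same forms held 17.3, 19.4 and 17.7% against 16.6, 17.1 and 16.7%, with no overlap but a difference of -1.33 points. Of the 9 internal exons of Smad2-201, 3 are skipped in an annotated transcript and 6 in none, so skipping of those 6 cannot appear in these values. The sources used here do not say which Smad2 exon the Rpl22 proteins act on. The 90-base exon need not be that exon.

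Shares of single Smad2 forms did not overlap between the genotypes for Smad2-201 and Smad2-206, but neither passed a usage test. Smad2-201, the main coding form, held 50.9 ± 1.44% of the gene's TPM in the wild type and 59.0 ± 0.65% in the knockout (adjusted p = 0.505 in the limma ratio fit). Smad2-206, a 7-exon model with an incomplete coding region, held 13.7 ± 1.40% and 7.25 ± 1.74%, at 4.36, 4.56 and 4.88 TPM against 1.46, 2.13 and 2.21 TPM (log2 fold change -1.39 ± 0.37, adjusted p = 0.0922 for the transcript and 0.297 in the ratio fit). Smad2-202 had 8.28, 7.53 and 8.45 TPM against 4.94, 6.13 and 5.68 TPM (-0.68 ± 0.26, adjusted p = 0.210), with no overlap in either pair of groups. Smad2-205, the longest model, held 6.94 ± 1.55% and 6.38 ± 1.11%, Smad2-203 held 1.76 to 5.18% and 2.45 to 11.1%, and Smad2-204 and Smad2-207 had reads in 1 library each.

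Because the libraries differ by the Rpl22 allele itself, the genes beside it were examined. Of the 5 tested genes on each side, 3 were called higher and none lower, beside 13.7% and 13.8% of all genes. An unadjusted p under 0.05 in the edgeR test was found for 7 of them, and for 6498 of all 16656 genes. Chd5, a chromatin remodeler whose gene starts 12.9 kb after the Rpl22 start (chr4:152423108-152474651, GRCm39), stood at 0.61, 0.97 and 0.47 CPM in Rpl22+/+ and at 23.3, 25.8 and 29.4 CPM in Rpl22-/-, and it rose by 5.25 ± 0.32 on the log2 scale (adjusted p = 0.000125). Rnf207, directly before Rpl22, had 0.046 ± 0.034 CPM in the wild type and 0.28 ± 0.084 CPM in the knockout (2.55 on the log2 scale, adjusted p = 0.0197), and Nphp4, a gene of the primary cilium, had 2.74 ± 0.64 and 4.82 ± 0.33 CPM (0.81, adjusted p = 0.0364). Among the others were Acot7 (0.77), Dffb (0.54), Icmt (0.37), Kcnab2 (0.01), Espn (-0.36) and Gpr153 (-1.36), of which Acot7, Dffb and Gpr153 had adjusted p-values between 0.0513 and 0.0558. DESeq2 and the replicate block each called 5 of the 10 higher, upper-quartile factors 6, and no composition factor or the GC correction 7. 1 gene was called lower with DESeq2 size factors, limma-voom, the GC correction or Rpl22+/+ replicate 2 left out. The count was 1 without Rpl22+/+ replicate 3, Rpl22-/- replicate 1 or Rpl22-/- replicate 3, 2 without Rpl22+/+ replicate 1 or Rpl22-/- replicate 2, and 7 without Rpl22+/+ replicate 2. Chd5 was called in all 6 of these fits, and Rnf207 and Nphp4 in 2 each.

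Within 5 Mb of Rpl22, 54 of 123 other tested genes were called higher (43.9%) and 5 lower (4.07%), with a median log2 fold change of 0.60. The rest of chromosome 4 had 31.6% higher and 7.77% lower and a median of 0.42, and the other chromosomes had 13.3% and 15.9% and a median of 0.02. The number of genes called higher near Rpl22 rested on the libraries used, as did that over all genes. Over all genes it was 2288, against 3540 without Rpl22+/+ replicate 2 and 1175 without Rpl22+/+ replicate 3. Near Rpl22, leaving out Rpl22+/+ replicate 2 raised it to 78, and leaving out replicates 1 or 3 of that genotype gave 33 or 24. For the Rpl22-/- replicates 1, 2 and 3 the counts were 30, 40 and 32. The median there lay between 0.51 and 0.73 in these fits and the other alternatives run. Around the other members there was no such tilt toward higher levels. Within 5 Mb of Rpl22l1, 3 and 3 of 23 genes were called higher and lower (median 0.06). Around Mdm4 these were 13 and 14 of 84 (median 0.04). Around Smad2, 4 of 40 were called higher (10%) and 8 lower (20%), with a median of -0.21.

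**Figure D5:**
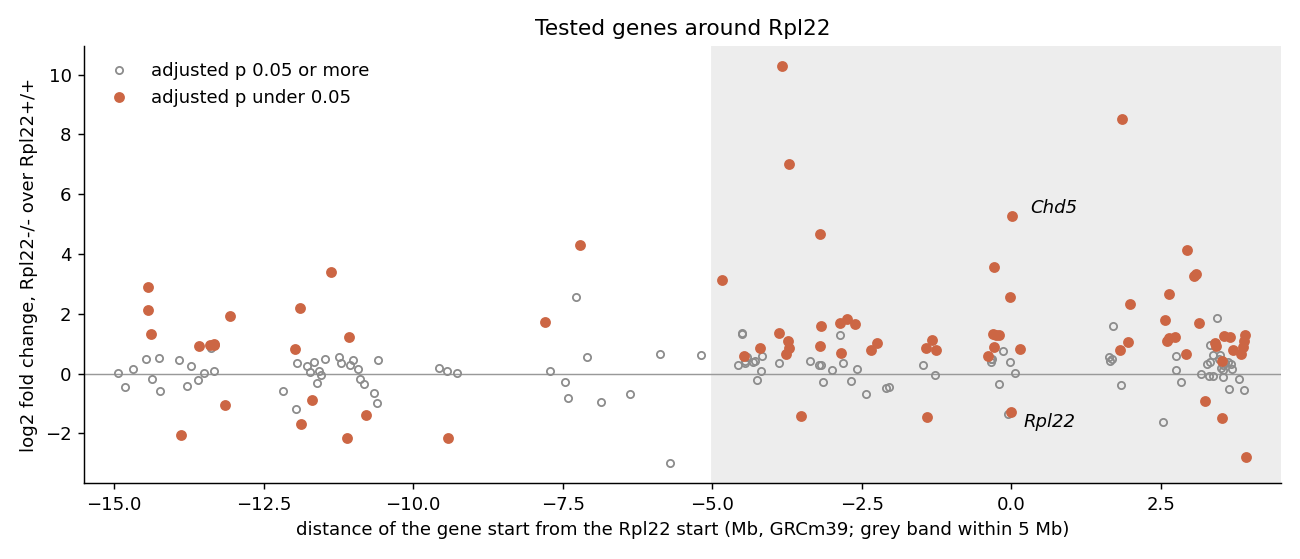
log2 fold change of each tested gene (Rpl22-/- over Rpl22+/+) against the distance of its start from the Rpl22 start in Mb, with filled points for adjusted p under 0.05 and a grey band within 5 Mb, on the side that ends the chromosome up to its last tested gene. Within the band 54 genes are called higher and 5 lower, apart from Rpl22 itself, and Chd5, next to Rpl22, has a log2 fold change of 5.25.

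Other proteins of the large subunit were examined next, beside the 13.7% of all genes called higher and 13.8% called lower. Of 46 large-subunit genes, none was called by edgeR (6 had an unadjusted p under 0.05, beside 6498 of all 16656 genes, and DESeq2 called 4 higher and 1 lower). Other scalings gave more: 5 were called higher with no composition factor, which moves the median of all genes from 0.07 to 0.19, 5 with the GC correction, and 9 higher and 1 lower by limma on log2 TPM. With the replicate block 5 were called higher and 1 lower, and with the block and GC correction 13 and 1. Their median log2 fold change was 0.18, beside 0.07 over all genes. Without Rpl22+/+ replicate 2 it was 0.39 and 9 were called higher, whereas without any other library none was called and the median lay between 0.054 and 0.30. Of the 5 paralogs of other large-subunit proteins, 4 were tested. Rpl36al rose by 0.53 on the log2 scale, from 111 ± 13.7 to 160 ± 17.5 CPM (adjusted p = 0.0434), a call kept without Rpl22+/+ replicate 2 and lost without any of the other 5 libraries (adjusted p of up to 0.168). Rpl39l, known from the testis, fell from 2.54 ± 0.91 to 0.044 ± 0.020 CPM (-5.69, adjusted p = 0.000400). The median of the 4 was -0.09, which turned positive without a composition factor.

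Around Mdm4, genes of the p53 pathway were read from 2 lists. Of 14 regulators of p53, 3 were called lower (beside 13.8% of all genes) and none higher (beside 13.7%), and DESeq2 gave the same counts. The replicate block gave 4 lower and 1 higher, the GC correction 5 and 1, Rpl22+/+ replicate 2 left out gave 4 and 3, and any other library left out gave 2 and none. The median of -0.04 changes sign with the scaling. They included Cdkn2a, whose Arf product inhibits Mdm2 (10.5 ± 4.13 to 1.36 ± 0.20 CPM, log2 fold change -2.94, adjusted p = 0.00114), and Rchy1, a ubiquitin ligase for p53 (51.9 ± 1.85 to 26.5 ± 1.65 CPM, -0.97, adjusted p = 0.00180). Of 22 p53 targets, 5 were called higher (beside 13.7% of all genes) and none lower (DESeq2 called 6 and 1, the replicate block 7 and 1, and the GC correction 5 and 2), with a median of 0.63. With Rpl22+/+ replicate 3 left out 3 were called higher, and with Rpl22+/+ replicate 2 left out 7 were called higher and 2 lower. The median dropped to 0.28 with Rpl22-/- replicate 3 left out. Tnfrsf10b, a death receptor, rose from 1.41 ± 0.068 to 4.96 ± 0.22 CPM (1.81, adjusted p = 0.000834). Eda2r, a receptor of the same family, was at 0 in all 3 wild-type libraries and at 0.29, 0.53 and 0.41 CPM in the knockout (adjusted p = 0.00339).

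Around Smad2, 41 of 48 listed genes of the TGF-beta pathway were tested, again beside 13.7% of all genes called higher and 13.8% lower. Of 6 other Smads, Smad6, an inhibitory Smad, rose by 2.55 on the log2 scale (0.89 ± 0.27 to 5.23 ± 0.67 CPM, adjusted p = 0.00132), and Smad4, the common partner of Smad2, fell from 73.4 ± 6.81 to 31.6 ± 2.59 CPM (-1.22, adjusted p = 0.00125). Of 6 ligands, 1 was called lower (3 by DESeq2; Inhbb, 0.23 ± 0.019 to 0.044 ± 0.036 CPM, adjusted p = 0.0307) and none higher, with a median of -0.81. Inhbb was called in 2 of the 6 fits that left out a library. Leaving out Rpl22+/+ replicate 2 gave 2 ligands lower, leaving out Rpl22-/- replicate 3 gave 1, and leaving out Rpl22-/- replicate 1 gave none lower and 1 higher, whereas the other 3 fits called none. The GC correction called 4 lower, the block with GC correction 3, and the fit with no filter on low counts none. Of 8 receptors, Acvr2b was called higher (1.65 ± 0.20 to 4.79 ± 0.55 CPM, 1.53, adjusted p = 0.00247) and Acvr1b lower (71.8 ± 9.06 to 39.7 ± 2.82 CPM, -0.86, adjusted p = 0.00585). With the replicate block a further Smad was called higher and a further receptor lower. Of 11 proteins that modulate Smads, 3 were called lower and none higher, among them the phosphatase Ppm1a (109 ± 11.1 to 68.6 ± 4.02 CPM) and the ubiquitin ligase Smurf2 (50.6 ± 3.19 to 34.3 ± 1.97 CPM). None of the 11 was called without Rpl22-/- replicate 1 or Rpl22-/- replicate 3, 1 without Rpl22+/+ replicate 3, 2 without Rpl22+/+ replicate 1 and 4 without Rpl22+/+ replicate 2. Of 10 targets, Id2 was called higher (75.3 ± 2.32 to 154 ± 9.06 CPM) and 3 were called lower, including Tgfbi (334 ± 122 to 106 ± 29.8 CPM) and Itgae (1.90 ± 0.31 to 0.90 ± 0.10 CPM). Id2 and Tgfbi were called with any library left out, and Itgae only without Rpl22+/+ replicate 2. The number called lower was 1 without Rpl22+/+ replicate 1, Rpl22+/+ replicate 3 or Rpl22-/- replicate 2, and 2 without either of the other Rpl22-/- libraries. The median was -0.29 and ranged from -0.77 without Rpl22-/- replicate 3 to -0.018 without Rpl22-/- replicate 1.

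Of 15 splicing regulators, 2 were called higher (beside 13.7% of all genes) and none lower, with a median of 0.29. They were U2af1, which recognizes the 3′ splice site (84.1 ± 12.3 to 140.3 ± 7.70 CPM, log2 fold change 0.74, adjusted p = 0.0121), and Srsf7, an SR protein (146 ± 31.9 to 254 ± 29.2 CPM, 0.81, adjusted p = 0.0260). DESeq2 called 3 higher, and no composition factor, limma on log2 TPM and the replicate block with GC correction each 5. The number called higher was 6 without Rpl22+/+ replicate 2, where 1 was called lower. None was called without Rpl22+/+ replicate 3, and 1 was called higher without any of the other 4 libraries.

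Last, the genes whose log2 CPM most resembled that of each member over the 6 libraries were found among 11753 genes. For Rpl22 these were Pdha1 (Pearson r = 0.9998) and Pmm1 (0.9993), and for Rpl22l1 they were Rpl36al (0.998) and Bcl2l14 (0.997). For Mdm4 they were Ints6l (0.9999) and Edrf1 (0.999), which share its low value in Rpl22+/+ replicate 2: Ints6l stood at 130.4, 17.8 and 112 CPM in Rpl22+/+ and at 116, 46.4 and 71.8 CPM in Rpl22-/-. For Smad2 they were Jaml (0.999) and Fbxo38 (0.998). With 6 libraries of 2 genotypes such values are common: 1763, 1483, 984 and 1474 genes had r over 0.9 with Rpl22, Rpl22l1, Mdm4 and Smad2.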

How the data were processed

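RNA from CD11b+Gr1+ splenocytes of Mll-AF9 mice (3 Rpl22+/+ and 3 Rpl22-/- libraries) was sequenced by the authors as stranded poly(A) paired-end libraries. The authors trimmed the reads with Trimmomatic and deposited Salmon estimated counts for each transcript, together with TPM values, which Salmon scales for effective length (tool versions and transcript set not given in the sources used here). They also deposited a DESeq2 gene table, from which only the mean signal (normalized counts over all libraries) and the GRCm39 positions were used. Its fold change, standard error and p-value columns hold the authors' own comparison and were left out. Genome build GRCm39 is named in the submitters' processing notes.

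Transcripts were matched by identifier without version to GENCODE vM21 (GRCm38). Of 276623 listed transcripts, 49.2% matched, holding 98.0 to 98.1% of the reads, and all 38 member transcripts had equal lengths in both. Depth was 35828500 to 102866127 reads per library. Counts were rounded, summed per gene and tested with the quasi-likelihood test of edgeR 4.0.16 (TMM, filterByExpr, Benjamini-Hochberg over all features, called at an adjusted p under 0.05), in R 4.3.3. Transcripts were tested in the same way, and their usage within a gene with diffSpliceDGE. Added after the data were seen were a limma 3.58.1 fit to the log2 ratio of a transcript to the rest of its gene (pseudocount 0.1 TPM), protein-coding sums, the GC-corrected paralog ratio, and events other than skipped exons. Unless another tool is named, adjusted p-values in the text come from edgeR. Shares and ratios were compared with two-sided exact permutation tests, which cannot go below 0.1 for 3 libraries against 3. Intervals and upper limits (3 reads for a count of 0) cover counting error only. Copies of members were searched with BLAST 2.17.0. Scripts were tested on counts simulated from these libraries with known changes. The gene and transcript tests of edgeR and the gene test of limma-voom gave false calls slightly above the nominal rate. DESeq2, diffSpliceDGE and limma diffSplice gave them well above it, so calls and backgrounds from these 3 are likely to be too many. The log2 ratio fit was not simulated.

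Alternatives were other scalings, filters and tools (DESeq2 1.42.0, limma-voom, limma on log2 TPM), a GC correction, the replicate number as a block, and leaving out each library. The labels share replicate numbers across genotypes. Same-numbered libraries deviated together (r = 0.57, 0.71 and 0.13 over 13202 genes), so the numbers were treated as pairs, although Rpl22+/+ replicate 3 correlated better with Rpl22-/- replicate 1 (0.43). Blocked values are given where they change the call of a member or move a count of calls by over 1.5 times.

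Named genes were the members, copies with at least 10 reads, the 5 tested genes on each side of Rpl22, the 2 genes with the smallest p in each direction in each of 10 lists, and the 2 genes most like each member. The members and lists were chosen with earlier results of these data known. A gene that this rule names is not reported here.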

Additional observations from a re-analysis of the deposited data

How the results depend on the processing

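Rpl22 kept its direction and its call under all 13 alternative settings and 6 left-out libraries, where the log2 fold change ranged from -1.43 to -1.06. The balance of Rpl22l1 to Rpl22 (1.98 to 2.05 with a library left out, 1.72 in GC-corrected CPM) and the shares of Rpl22 without the first exon (7.12 to 10.6 points), of the upstream Rpl22l1 acceptor (-7.67 to -5.65), of Mdm4 skipping (-5.47 to -4.57) and of Smad2 skipping (-1.80 to -0.66) kept their direction, though their exact permutation test cannot pass 0.05 with 3 or 2 libraries against 3. Rpl22l1 lost its call with the GC correction (0.14) and with the replicate block and GC correction together (0.45), and ranged from 0.61 to 0.88 with a library left out. Mdm4 turned positive with limma-voom (0.17), limma on log2(TPM + 1) (0.24) and log2(TPM + 0.1) (0.26), the replicate block (0.15) and the block with GC correction (0.054), and without Rpl22+/+ replicate 1 (0.27), Rpl22+/+ replicate 3 (0.096) or Rpl22-/- replicate 2 (0.061). It ranged from -0.62 to 0.27 with a library left out. Smad2 lost its call with upper-quartile factors (-0.34), no filter on low counts (-0.37), no composition factor (-0.26), limma on log2(TPM + 1) (-0.32) and log2(TPM + 0.1) (-0.33), the replicate block (-0.38) and protein-coding transcripts alone (-0.34), and ranged from -0.44 to -0.36 with a library left out. The genes called numbered 4594, against 7434 with the block and GC correction and 2622 to 6851 with a library left out. Transcripts called over all genes numbered 1395 higher and 1658 lower, against 631 and 924 with the replicate block. With a library left out they ranged from 384 and 366 (without Rpl22+/+ replicate 3) to 2165 and 2214 (without Rpl22+/+ replicate 2). Of the member transcripts, 2 were called, 1 with no filter, and 0 to 3 with a library left out, and for usage 0 to 1. Of the genes in the 10 lists, 24 were called, against 37 with no composition factor or with the replicate block, 40 with either log2 TPM fit or the GC correction, 59 with the block and GC correction, and 13 to 52 with a library left out. The block changed no other call of a member gene. The cause of these changes was not tested. Depth limits what can be said of transcripts with 0 reads, which may hold up to 0.168% of a gene's reads in a library (Smad2-204 and Smad2-207 in Rpl22-/- replicate 1).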
